A study of Mus musculus with 23 samples.

Results

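The 10 genes described here encode histone lysine methyltransferases of active chromatin, and the question was how CTCF crosslinked to their RNA. They are Kmt2a, Kmt2b, Kmt2c, Kmt2d, Kmt2e, Setd1a, Setd1b, Setd2, Nsd1 and Ash1l, which were chosen by name. A CTCF site counted for a gene when it lay inside the gene body on the gene's own strand. These 10 genes are among 13608 genes with such a site in at least 1 of 6 lists, and 9 of the 10 held at least 20 sites in ESC WT. The exception, Setd1b, held 2.

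Chromatin that can be transcribed carries methyl groups on particular lysines of histone H3. The MLL family enzymes encoded by Kmt2a to Kmt2d, and Setd1a and Setd1b, methylate H3K4 at promoters and enhancers within complexes that share core subunits. Setd2, Nsd1 and Ash1l methylate H3K36, Setd2 in the wake of elongating RNA polymerase II. In embryonic stem cells these enzymes help genes to be switched on as the cells leave pluripotency. CTCF, a DNA-binding zinc finger protein that anchors chromatin loops, also binds RNA.

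The sites come from iCLIP2 of nuclear RNA in mouse E14 embryonic stem cells (ESCs) and in the same lines after 2 days in N2B27 medium on laminin, which gives neural progenitor cells (NPCs). UV light (254 nm, 400 mJ/cm2) linked CTCF to RNA, Flag-tagged CTCF was precipitated, and reverse transcription that stopped next to the linked base marked the crosslinked nucleotide. In all groups both endogenous Ctcf alleles carried an AID degron with eGFP, OsTIR1(F74G) was expressed from Rosa26, an unused Hb9 mCherry reporter was present, and Flag-Halo CTCF was doxycycline-inducible from the Tigre locus. All groups received 1 µM 5-Ph-IAA and 1 µg/mL doxycycline for 24 hours. The rescue CTCF was either the wild type protein (WT) or a form without part of zinc finger 1 (ΔZF1). Each rescue line was 1 clone, and both were derived from the same degron clone. ESC WT, ESC ΔZF1 and NPC ΔZF1 had 4 libraries each and NPC WT had 3. The non-crosslinked controls (noXL), 4 libraries per cell type, were made from the WT line alone.

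The libraries of a group were merged before sites were called, so each group gives 1 list and no value has a replicate error. No test between conditions was possible. Ranges in parentheses are 95% intervals (Wilson for shares, and derived from Wilson or Newcombe for ratios and differences) and cover counting error only. Genic sites numbered 429119 in ESC WT and between 102002 and 230147 in the other lists, and the read depth behind them is unknown. Site numbers were therefore compared as sites per 10000 genic sites of the same list. A difference between lists cannot be divided here into RNA level and crosslinking per RNA, and RNA levels were not analysed here. The cell type labels were checked on markers. Of 5 ESC markers, all 5 had lower scaled site numbers in NPC WT than in ESC WT, with Esrrb at 460 and 0 sites. Of 5 NPC markers, Nes went from 2 sites (ESC WT) to 28 (NPC WT), while Sox1, Pax6, Hes5 and Zic1 were at 0 in both.

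The sequences below show what a site looks like in these RNAs. Each is 21 nt of mm10 read 5′ to 3′ on the strand of the gene, T stands for uridine, and the capital is the crosslinked nucleotide. The first set is the site with the highest PureCLIP score of each gene in ESC WT. The score is the caller's log posterior ratio for a crosslinked state.
Kmt2a, chr9:44849227-44849247, minus strand, coding exon, score 21.7: ccatgaagatTgcacgcctgg
Kmt2b, chr7:30586342-30586362, minus strand, coding exon, score 27.5: ggagaaggagGgagaagagaa
Kmt2c, chr5:25377260-25377280, minus strand, coding exon, score 20.4: ttgcagaatcTgtatagaatg
Kmt2d, chr15:98850466-98850486, minus strand, coding exon, score 22.2: gatgacgactTtgatgcccac
Kmt2e, chr5:23480875-23480895, plus strand, intron, score 18.6: atacgtaataCaaaaaaaaaa
Setd1a, chr7:127799735-127799755, plus strand, 3′ UTR, score 16.3: tgtttcctgtGgaaacctggg
Setd1b, chr5:123168390-123168410, plus strand, 3′ UTR, score 0.659: tgatttttttTtttcctccct
Setd2, chr9:110547207-110547227, plus strand, coding exon, score 24.2: aggcaaagatTgaaaatgtgc
Nsd1, chr13:55213275-55213295, plus strand, coding exon, score 21.1: ccggtgaattTagatgcctcc
Ash1l, chr3:89079216-89079236, plus strand, 3′ UTR, score 16.0: atatttccttTttacagaaaa

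Of these 10 nucleotides 7 were uridines and 6 lay in coding exons. The Kmt2b nucleotide, a guanosine in a purine run, was also the best-scoring Kmt2b site without UV, with a score of 34.0 in ESC noXL. The Setd2 site had an ESC noXL site just beyond the 5 nt within which sites were counted as shared. A high score alone therefore did not mark a UV-dependent site in these genes.

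A second set holds the sites that recurred. Of 1366 ESC WT sites in the 10 genes, 14 had a site of each of the 3 other UV lists within 5 nt, a share of 1.02% against 1.99% of all genic ESC WT sites. No noXL site lay near 10 of them, which formed 6 groups of neighbouring nucleotides. The best-scoring site of each is shown.
Nsd1, chr13:55306946-55306966, plus strand, coding exon, score 10.7: taccttcaatTacaacctaga
Kmt2b, chr7:30581116-30581136, minus strand, coding exon, score 7.10: ccagatctgtTcagcctgtgt
Setd1a, chr7:127780422-127780442, plus strand, coding exon, score 2.31: aagtaactttTgcgaggctca
Nsd1, chr13:55313603-55313623, plus strand, coding exon, score 1.63: acacaaacttTggcacaaact
Kmt2d, chr15:98839992-98840012, minus strand, coding exon, score 0.672: ggtacagcttTgagaccaagc
Nsd1, chr13:55313864-55313884, plus strand, 3′ UTR, score 0.342: tcagaactctTttgacattag

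All 6 were crosslinked at uridine and 5 of 6 lay in coding exons. Their scores in ESC WT, 0.342 to 10.7, were below the best score of the same gene in each case.

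Together the 10 genes had 1366, 876 and 651 sites in the ESC lists (WT, ΔZF1 and noXL) and 709, 532 and 445 in the NPC lists, always in that order. Per 10000 genic sites these were 31.8 (30.2 to 33.6), 40.2 (37.7 to 43.0) and 43.2 (40.0 to 46.6) in ESCs, and 30.8 (28.6 to 33.2), 34.7 (31.9 to 37.8) and 43.6 (39.8 to 47.9) in NPCs. By point value the genes thus took a larger share of the list with ΔZF1 than with WT CTCF in both cell types. In NPCs the intervals of WT and ΔZF1 overlapped. The largest shares were those without UV.

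**Figure D1:**
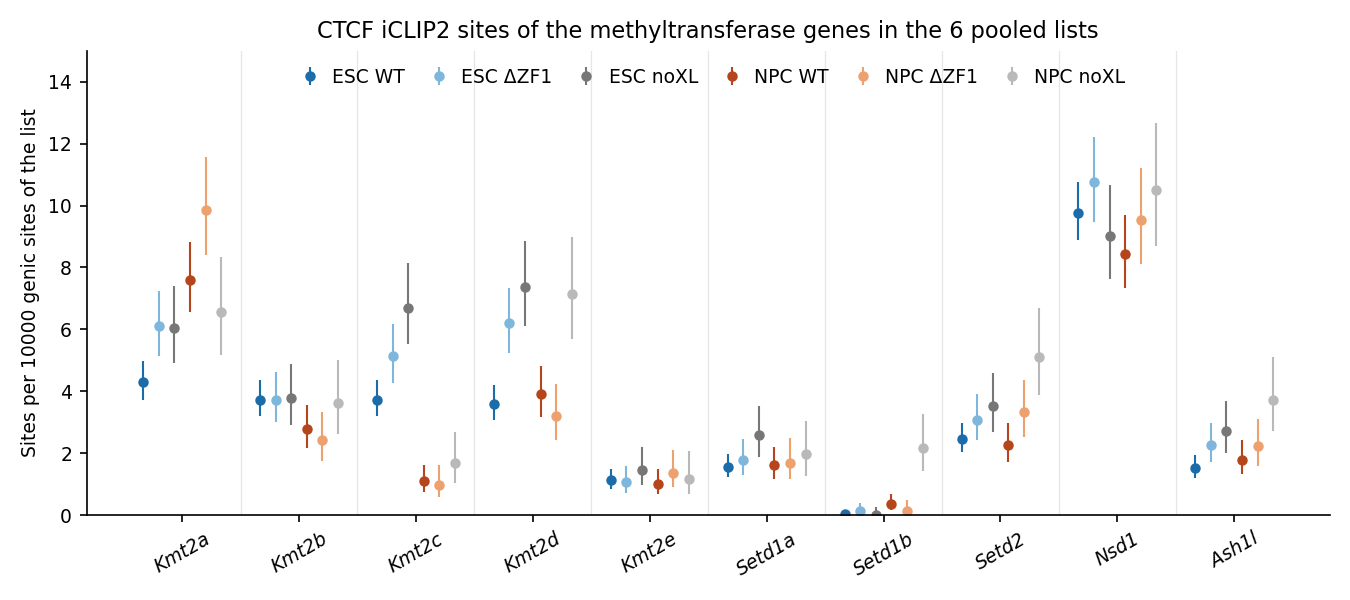
Sites per 10000 genic sites (vertical axis) for each of the 10 genes in the 6 pooled lists, with points for the value and lines for the 95% interval of counting error. Kmt2c sat at 3.73 to 6.70 in the ESC lists and at 0.979 to 1.67 in the NPC lists, and Setd1b was near 0 except in NPC noXL; heights are not scaled to gene length, so genes should be compared across lists and not with each other.

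The MLL family genes Kmt2a and Kmt2b encode the H3K4 methyltransferases MLL1 and MLL2, which act mainly at promoters of developmental genes. Kmt2a (chr9:44803355-44881296, minus strand) held 185, 133 and 91 sites in the ESC lists, in the order WT, ΔZF1 and noXL, and 175, 151 and 67 in the matching NPC lists. Its scaled level was 4.31 in ESC WT and 7.60 in NPC WT, a log2 ratio of 0.82 (0.52 to 1.12), higher than that of 85.8% of 6730 genes compared. The counts themselves were nearly equal, and without scaling to genic sites the ratio was -0.08. Of the 9 genes compared Kmt2a had the highest NPC to ESC ratio with WT CTCF, and the ratio was 0.69 (0.35 to 1.03) with ΔZF1. Without UV it was 0.13 (-0.33 to 0.58), an interval that overlapped both intervals with UV.

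Kmt2b (chr7:30568858-30588726, minus strand) held 160, 81 and 57 sites in the ESC lists, and 64, 37 and 37 in the NPC lists. Between cell types it went the other way from Kmt2a, with 3.73 per 10000 in ESC WT, 2.78 in NPC WT and a log2 ratio of -0.41 (-0.84 to -0.01). The interval of Kmt2b lay wholly below that of Kmt2a. Almost all Kmt2b sites were exonic, since 2.5% of ESC WT sites lay in introns although introns make up 10.3 of its 19.9 kb.

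Kmt2c and Kmt2d encode MLL3 and MLL4, the main writers of H3K4 monomethylation at enhancers. Kmt2c (chr5:25271798-25498783, minus strand) held 160, 112 and 101 sites in ESCs, but 25, 15 and 17 in NPCs. The drop between cell types was present in all 3 pairs of lists, with log2 ratios of -1.73 (-2.38 to -1.18) for WT, -2.31 (-3.16 to -1.62) for ΔZF1 and -1.94 (-2.74 to -1.27) without UV. The interval without UV overlapped both intervals with UV, so the lower Kmt2c level in NPCs was not particular to the crosslinked lists. Kmt2c was the only gene of those compared past the limit of -1 in the WT comparison, where 10.4% of all genes compared were, and only 5.27% of genes had a lower ratio.

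Kmt2d (chr15:98831669-98871204, minus strand) held 154, 135 and 111 sites in the ESC lists and 90, 49 and 73 in the NPC lists. Per 10000 genic sites its levels were 3.59, 6.20 and 7.36 in ESC WT, ESC ΔZF1 and ESC noXL, and 3.91, 3.20 and 7.16 in NPCs. The noXL level was the highest in both cell types, and the ESC ΔZF1 level was nearer to noXL than to WT. Its log2 ratio of ΔZF1 to WT was 0.79 (0.46 to 1.12) in ESCs, the highest of the genes compared, and -0.28 (-0.79 to 0.21) in NPCs. Kmt2c and Kmt2d, which resembled each other in ESCs, thus differed in NPCs, where the scaled Kmt2d level was 3.91 (3.18 to 4.81) and that of Kmt2c 1.09 (0.74 to 1.60) with WT CTCF; exon lengths were 19.9 and 20.3 kb.

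Setd1a and Setd1b encode the catalytic subunits of the SET1 complexes, which account for much promoter H3K4 trimethylation. Setd1a (chr7:127776670-127800122, plus strand) held 67, 39 and 39 sites in ESCs, and 37, 26 and 20 in NPCs. None of its ratios between rescue proteins or between cell types had an interval clear of 0. Of its 228 sites over all lists 104 (45.6%) also lay in Gm49388, a gene model on the same strand, so its counts are uncertain. Setd1b (chr5:123142193-123168629, plus strand) held 2, 3 and 0 sites in ESCs and 8, 2 and 22 in NPCs. Its sites were most numerous in NPC noXL. Per genic site they were 10.8-fold higher there than in ESC noXL, taking 3 counts as the floor for the 0. That value leaves out the counting error of the 22, and the interval of the log2 ratio began at 3.08. The WT to noXL log2 ratio in NPCs was -2.53 (-3.77 to -1.50), so Setd1b had fewer sites per genic site with UV than without.

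Kmt2e encodes MLL5, a SET domain protein that binds H3K4 trimethylation and is thought to lack methyltransferase activity of its own. The gene (chr5:23434441-23504235, plus strand) held 48, 23 and 22 sites in ESCs, and 23, 21 and 12 in NPCs. Its scaled levels lay between 0.999 and 1.46 in all lists. Positions within the gene varied more: 21 of 48 sites were intronic in ESC WT, and 0 of 23 in ESC ΔZF1, which allows a share of up to 13.0%. In ESC noXL 7 of 22 were intronic (31.8%), so intron sites were also frequent without crosslinking. The ESC ΔZF1 share minus the ESC noXL share was -31.8 points (-52.7 to -10.8). In NPCs 8 sites were intronic in each list, of 23, 21 and 12. The 21 ESC WT intron sites lay in introns 5, 8, 9 and 11. Per genic site, intron sites were 3.55-fold higher in ESC WT than in ESC ΔZF1, taking 3 counts as the floor for the 0. That value leaves out the counting error of the 21, and the interval of the ESC ΔZF1 to ESC WT log2 ratio ended at -1.47.

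Setd2, which adds the third methyl group to H3K36, (chr9:110532597-110618633, plus strand) held 106, 67 and 53 sites in ESCs, and 52, 51 and 52 in the NPC lists. The 3 NPC lists thus held nearly equal counts although the WT list is 2.26 times as long as the noXL list. The log2 ratio of NPC WT to NPC noXL was -1.17 (-1.73 to -0.62). Ash1l, which methylates H3K36 and opposes Polycomb silencing, (chr3:88950622-89079375, plus strand) held 65, 49 and 41 sites in ESCs and 41, 34 and 38 in NPCs. Its WT to noXL log2 ratios were -0.86 (-1.40 to -0.28) in ESCs and -1.07 (-1.70 to -0.43) in NPCs. Over the 6 lists the profiles of Setd2 and Ash1l were the closest of any pair among the 9 genes compared, at a distance of 0.304, where distance is the root of the summed squared differences of centred log2 levels.

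Nsd1, a writer of H3K36 mono- and dimethylation, was the gene of the group with most sites. The gene (chr13:55209782-55318325, plus strand) held 419, 234 and 136 sites in ESCs (WT, ΔZF1, noXL), and 194, 146 and 107 in NPCs. Its scaled level stayed between 8.43 and 10.7 in all 6 lists, and by site number it ranked 35th to 60th among all genes. It made up 20.9% to 30.7% of the sites of the 10 genes. None of its 5 ratios between rescue proteins or between cell types had an interval clear of 0, and its ESC WT to noXL log2 ratio was 0.11 (-0.16 to 0.39).

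Per length the order of the genes differed. On exon sites per kb of exon in ESC WT, Kmt2b was highest at 16.3 (13.9 to 19.02), clear of Nsd1 at 11.6 (10.1 to 13.3). Nsd1, Kmt2a at 10.3, Setd2 at 8.65, Setd1a at 8.39, Kmt2d at 7.63 and Kmt2c at 7.29 each overlapped the next. Ash1l at 4.25 (3.32 to 5.43) lay below Kmt2c, overlapped Kmt2e at 2.59, and Setd1b was last at 0.166. In NPC WT the highest were Kmt2a at 8.28 (7.01 to 9.78), Nsd1 at 6.58 and Kmt2b at 6.46, whose intervals overlapped, and Kmt2c at 1.23 (0.835 to 1.82) had moved to the lower end. In ESC noXL the order was another one, with Kmt2b at 5.52 and Kmt2d at 5.37 highest, Nsd1 at 3.20 in the seventh place and Kmt2e at 1.44 above Setd1b, which was at 0. There neighbours among the first 9 genes overlapped, and Setd1b (0 to 0.318) lay clear below Kmt2e (0.870 to 2.37).

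The comparison of the rescue proteins asked whether loss of part of zinc finger 1 altered crosslinking to these RNAs. In ESCs 9 genes had enough sites for a ratio (at least 20 in both lists together). All 9 had fewer sites in the ΔZF1 list, and the sum was 0.641 times that of WT, while genic sites of the whole list were 0.507 times. Scaled to genic sites, 8 of 9 lay above 0, and the intervals of Kmt2a at 0.51 (0.18 to 0.82), Kmt2c at 0.47 (0.12 to 0.81), Kmt2d at 0.79 and Ash1l at 0.58 (0.04 to 1.10) were clear of 0. The median of the 9 was 0.32 against 0.04 for 6518 genes, whose middle part ran from -0.33 to 0.39 between the quartiles. No gene of the 9 passed 1 or -1, limits that 6.84% and 5.45% of all genes passed. The sites of these genes were thus fewer with ΔZF1, but by less than those of the list as a whole.

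In NPCs all 9 genes compared again had fewer sites with ΔZF1, the sum being 0.750 times that of WT against 0.666 for genic sites. Scaled, 6 of 9 lay above 0, with a median of 0.18 against -0.04 over 5274 genes. The intervals of Kmt2a at 0.38 (0.06 to 0.69) and Setd2 at 0.56 (0.01 to 1.11) were clear of 0. None passed the limits, which 5.76% of genes passed upwards and 7.36% downwards. Only Kmt2a had an interval above 0 in both cell types. The summed ratio was 0.34 (0.22 to 0.46) in ESCs and 0.17 (0.01 to 0.33) in NPCs. Split by position, the summed NPC ratio to all genic sites was -0.06 (-0.25 to 0.13) in exons and 0.83 (0.51 to 1.15) in introns. Scaled to genic sites of the same class, it was 0.21 (0.02 to 0.40) in exons and 0.27 (-0.04 to 0.59) in introns. Kmt2a held 37 of the 146 NPC WT intron sites and 66 of the 173 with ΔZF1.

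**Figure D2:**
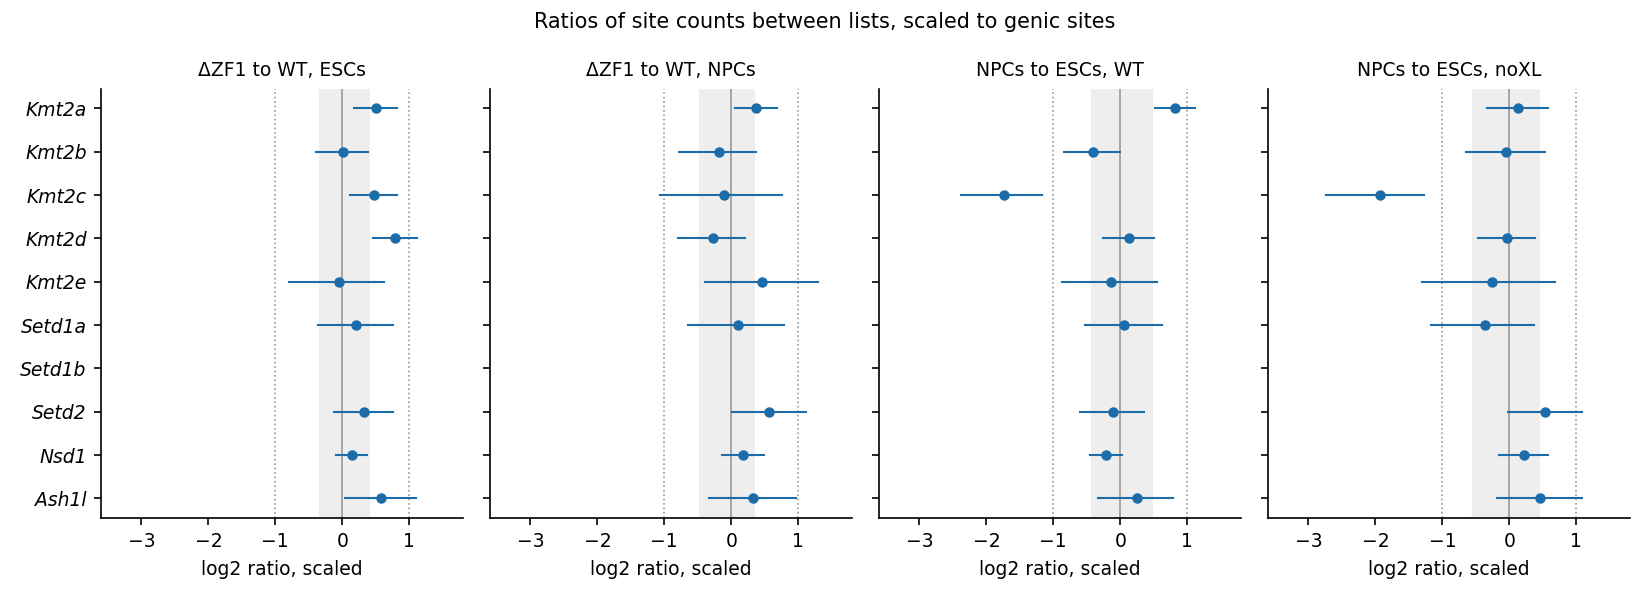
Log2 ratio of site counts between 2 lists, scaled to genic sites (horizontal axis), for each gene in 4 comparisons. Points are the ratio, lines the 95% interval of counting error, the grey band spans the quartiles of all genes compared and dotted lines the limits of 1 and -1; a gene with under 20 sites in both lists together, or at 0 in 1 list, has no point. Kmt2c lies at -1.73 and -1.94 in the comparisons of cell types with WT CTCF and without UV, and Kmt2a at 0.82 with WT CTCF.

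The comparison of cell types asked which of these RNAs gained or lost sites on differentiation. Summed, the group did not differ between NPC WT and ESC WT beyond counting error, with a log2 ratio of -0.05 (-0.18 to 0.08), and no gene reached 1, which 11.5% of genes did. Below this sum stood opposite values for single genes: per genic site Kmt2a was higher in NPCs, Kmt2b and Kmt2c were lower, and the other 6 genes compared had intervals that included 0. With ΔZF1 the sum was -0.21 (-0.37 to -0.06), and Kmt2d joined the lower genes at -0.94 (-1.42 to -0.49). Kmt2c was again the only gene past -1 there, against 14.1% of all genes, and none reached 1, against 10.9%. Without UV the sum was 0.02 (-0.16 to 0.19), with Kmt2c past -1 (12.3% of genes) and Setd1b past 1 (11.1%).

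The comparison with noXL asked how many sites the list without UV gave. The WT list held 2.10 times as many sites of these genes as the noXL list in ESCs and 1.59 times in NPCs, while all genic sites were 2.85 and 2.26 times as many. The scaled log2 ratio was -0.44 (-0.57 to -0.30) in ESCs and -0.50 (-0.67 to -0.33) in NPCs, and 8 of 9 and 9 of 10 genes lay below 0. Past -1 were Kmt2d in ESCs, at -1.04 (-1.39 to -0.68), where 6.6% of genes were, and Setd1b, Setd2 and Ash1l in NPCs, where 6.51% were. No gene of the group passed 1, as 8.12% and 10.5% of all genes did. For ΔZF1 the summed log2 ratio to noXL was -0.10 (-0.25 to 0.04) in ESCs, with no gene past 1 or -1, against 7.86% and 6.56% of all genes, and -0.33 (-0.51 to -0.15) in NPCs, with none past 1 (7.19% of genes) and Kmt2d and Setd1b past -1 (8.03%). Relative to other genes, these RNAs were therefore represented more strongly among the sites called without UV.

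Split by base, the excess of unscaled counts over noXL lay mainly on uridine, the base that UV links to protein most readily. Uridine sites of the 10 genes were 4.12 times as many in ESC WT as in ESC noXL and 3.82 times as many in NPCs, against 6.10 and 5.22 times over all genic uridine sites. Sites on other bases were 1.29 and 0.809 times as many, against 1.56 and 1.11. In NPCs the non-uridine sites of these genes were thus fewer with UV than without it.

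The share of sites on uridine gave a measure within each gene that needs no scaling between lists. It was 56.1% (53.5 to 58.8) over the group with WT CTCF in ESCs, 46.3% with ΔZF1 and 28.6% without UV, and 62.5%, 60.7% and 26.1% in NPCs. WT exceeded noXL in 9 of 9 genes in ESCs and 10 of 10 in NPCs, and every interval of the difference was above 0. The smallest and largest differences were 15.6 and 47.2 points in ESCs, and 22.5 and 65.2 points in NPCs. Exons of these genes contain 23.8% uridine and introns 32.9%, so the noXL shares lay near the base content and the WT shares well above it. Exon sites taken alone gave 56.6% in ESC WT and 26.7% in ESC noXL.

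With ΔZF1 the uridine share in ESCs was lower than with WT in 10 of 10 genes (Setd1b on 2 and 3 sites), with a summed difference of -9.80 points (-14.0 to -5.56). The interval was below 0 for 2 genes, Kmt2a with 54.6% and 39.8% and Ash1l with 67.7% and 40.8%. The same lower share was seen over all genic sites, at 60.6% in ESC WT and 49.2% in ESC ΔZF1. In NPCs the summed difference was -1.77 points (-7.24 to 3.67) and no gene had an interval clear of 0. The uridine share of ΔZF1 sites still exceeded noXL in 9 of 9 genes in ESCs and 9 of 10 in NPCs, with intervals above 0 in 5 and 8 genes; the exception, Setd1b, had 2 ΔZF1 sites in NPCs.

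**Figure D3:**
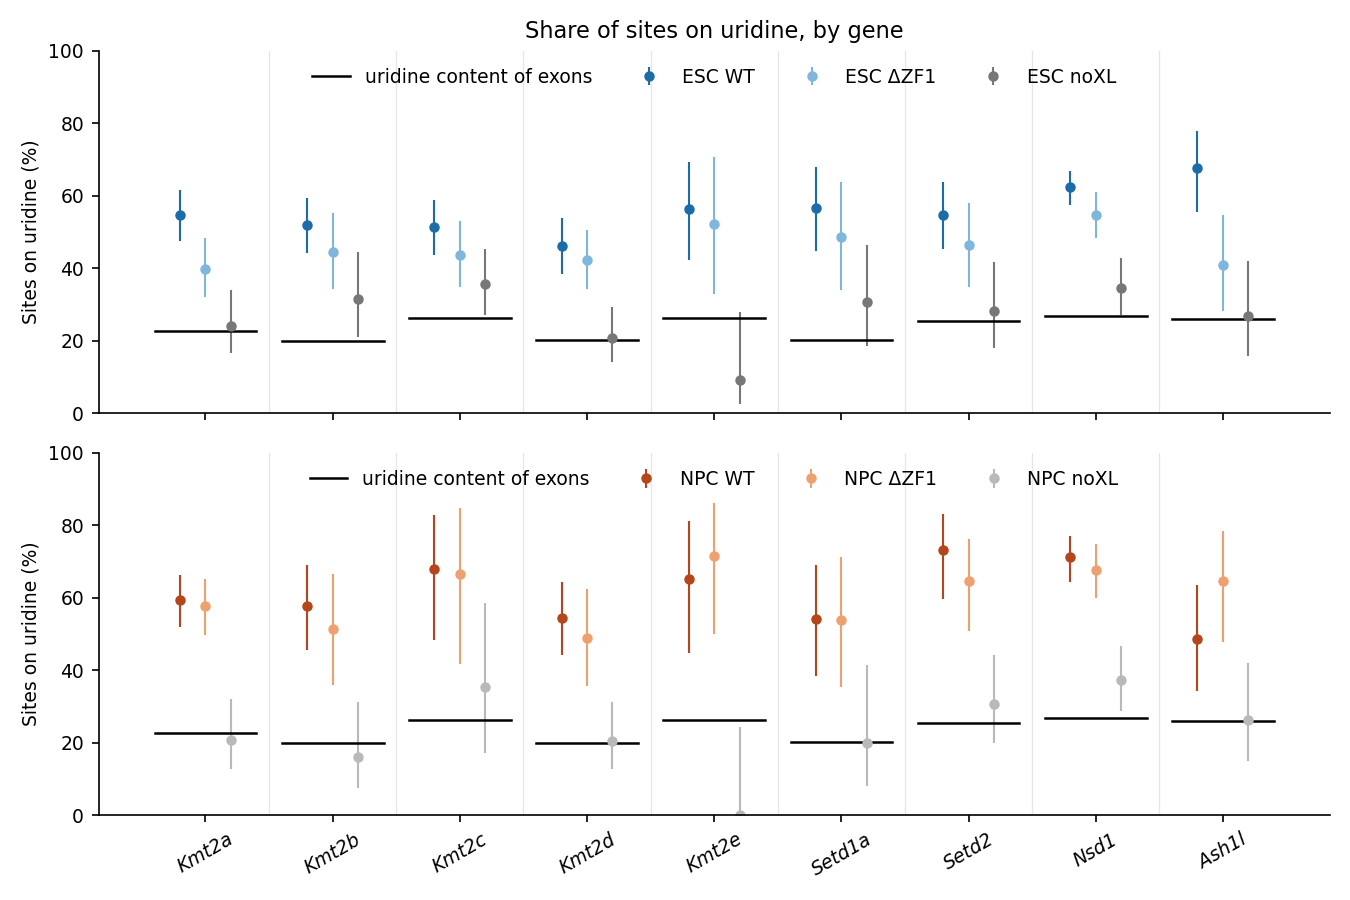
Share of sites on uridine (vertical axis, percent) for 9 genes in the ESC lists (upper panel) and NPC lists (lower panel), with 95% intervals of counting error; black bars mark the uridine content of each gene's exons. WT points lie above noXL points in all 9 genes in both panels, and the ESC ΔZF1 points lie between them.

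Windows that held a run of uridine were more frequent with UV than without it. The window includes the crosslinked nucleotide, so this share is not independent of the uridine share, and the flanks alone were not counted. The motif TTTT, searched on the sense strand of the 21 nt window, was present in ESCs at 17.9% of the group's WT sites, 13.0% with ΔZF1 and 6.76% without UV. Among all genic sites the shares were 21.05%, 15.3% and 10.8%. In NPCs the group's shares were 16.8% with WT, 17.7% with ΔZF1 and 9.66% without UV, so the lower share with ΔZF1 was seen in ESCs and not in NPCs. TGTGT was present at 2.49% of ESC WT sites of the group and at 2.92% of its ESC noXL sites, and GAAGAA at 1.32% and 1.54%, with overlapping intervals in both cases.

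Sites of the group were predominantly exonic. In ESC WT 62.8% of sites were in coding exons, 11.3% in 3′ UTRs, 2.27% in 5′ UTRs, 2.12% in non-coding exons and 21.5% in introns. The 5276 other protein-coding genes with at least 20 ESC WT sites had 36.1% in coding exons and 36.7% in introns. These shares are pooled over sites, and single genes lay closer together. The median intron share per gene was 12.9% over all 5420 genes with at least 20 ESC WT sites. It was 7.5% over the 9 such genes of the group, of which 6 lay below the median of all. Coding exons make up 11.6% of the length of the 10 genes and 4.12% of that of the 5276 others. Per kb the coding exons of the group held 9.17 sites against 13.8 in the others, 3′ UTRs 6.83 against 6.22, and introns 0.440 against 0.657. In the noXL lists the coding density of the group was slightly above that of the others, at 4.57 against 4.31 in ESCs and 2.68 against 2.50 in NPCs. The comparison genes were selected on their ESC WT sites. Of 334 exons 36 were at least 1000 nt long, and these held 54.5% of ESC WT exon sites on 61.0% of the exon length, at 6.89 sites per kb against 9.01 in shorter exons.

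Single long exons held many of the sites of several genes; these exons and introns were picked after their values had been seen. Setd2 exon 3 (chr9:110547209-110551494) held 56 of 106 ESC WT sites, 52.8%, and the best-scoring site shown above. This was 13.1 sites per kb, against 8.65 over all exons of Setd2. Ash1l exon 3 (chr3:88981233-88985790) held 35 of 65, 53.8%, or 7.68 per kb against 4.25 over its exons. In Kmt2a, exon 28 held 43 and the last exon, 37, held 46 of 185, but at 10.1 and 9.54 sites per kb they were no denser than all its exons at 10.3. In Kmt2b exon 3 (chr7:30584994-30587029) held 30 of 160 sites (14.7 per kb against 16.3), and in Kmt2d exon 40 (chr15:98843595-98846546) held 24 of 154 (8.13 per kb against 7.63).

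Introns differed between genes and between lists. The intron share in ESC WT was highest in Nsd1, at 51.8% (47.0 to 56.5), followed by Kmt2e at 43.8% (30.7 to 57.7), whose interval overlapped that of Nsd1. Nsd1 had 217 intron sites and Kmt2e 21, and without Nsd1 the group's intron share in ESC WT was 8.13% in place of 21.5%. In ESC ΔZF1 the share without Nsd1 was 2.65%, in ESC noXL 11.8%, and in the NPC lists 13.0% for WT, 26.2% for ΔZF1 and 19.5% for noXL. Kmt2b, Kmt2c and Kmt2d stayed below 10% in every list. A lower intron share with ΔZF1 than with WT in ESCs, with an interval below 0, was found in 4 of 10 genes, Kmt2a, Kmt2c, Kmt2e and Setd2, and a higher one in Nsd1. In NPCs the share with ΔZF1 was higher in 9 of 10 genes, with an interval above 0 in Kmt2a. Several of these rest on few intron sites. With ΔZF1 and WT there were 1 and 0 in Kmt2c, 2 and 2 in Kmt2d, and 3 and 2 in Kmt2b. Over the sum the differences were -3.26 points (-6.57 to 0.16) in ESCs and 11.9 points (6.97 to 16.9) in NPCs, and the genic shares of the whole lists differed in the same directions, with 33.4% (WT) and 31.9% (ΔZF1) in ESCs, and 26.9% and 39.6% in NPCs.

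**Figure D4:**
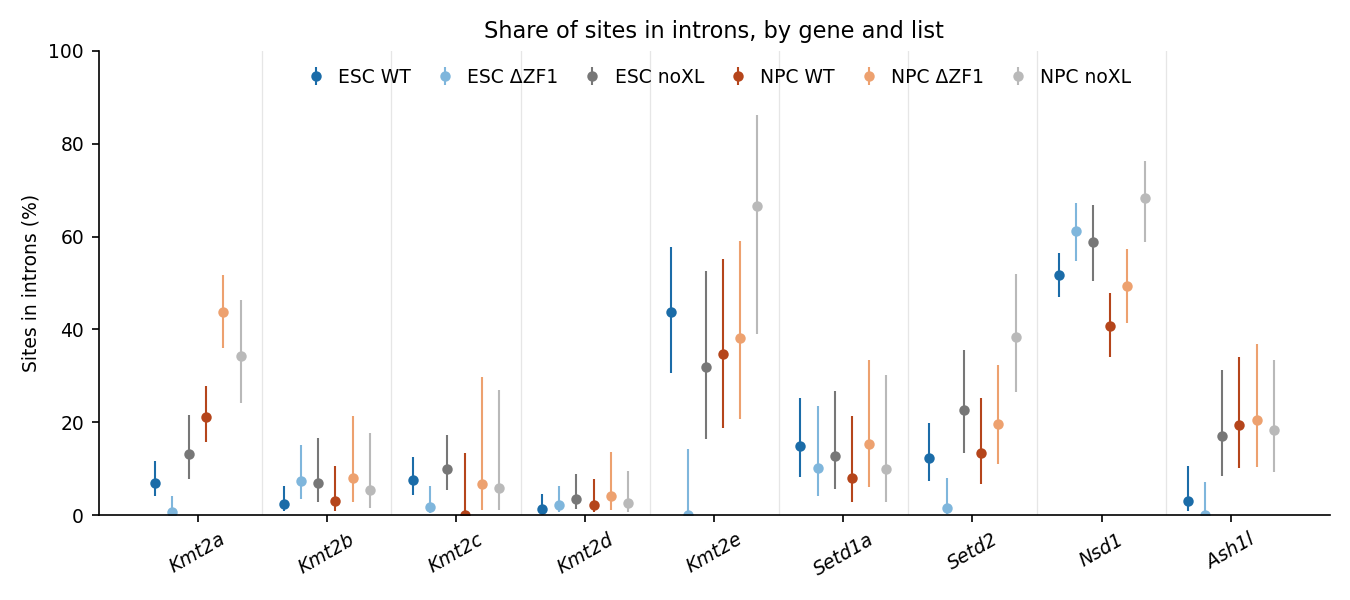
Share of sites in introns (vertical axis, percent) for 9 genes in the 6 lists, with 95% intervals of counting error. Nsd1 lies between 40.7% and 68.2% in all lists, Kmt2a runs from 0.752% in ESC ΔZF1 to 43.7% in NPC ΔZF1, and Kmt2b, Kmt2c and Kmt2d stay below 10%.

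The NPC sites of Kmt2a showed where such a difference arose. Its intron 2 (chr9:44853007-44878704), 25.7 kb long, held 1, 0 and 4 sites in the ESC lists (WT, ΔZF1 and noXL), and 17, 43 and 11 in the NPC lists. These were 9.71%, 28.5% and 16.4% of the gene's sites in the NPC lists. The log2 ratio of this intron was 1.88 (1.13 to 2.73) for ΔZF1 to WT in NPCs and 4.07 (2.43 to 7.55) for NPC WT to ESC WT. Without UV it was 1.83 (0.45 to 3.60) between the cell types, so sites in this intron were also more numerous in NPCs without crosslinking. On uridine were 30 of the 43 NPC ΔZF1 sites, 8 of the 17 NPC WT sites and 2 of the 11 NPC noXL sites. The 43 sites formed 40 separate groups spread from 2.84 to 23.7 kb after the start of the gene, with no dominant peak. The best-scoring of them, shown as an example of these intron sites, had a score of 23.5.
Kmt2a intron 2, chr9:44878450-44878470, minus strand, NPC ΔZF1: tcatgcatttTgtattgaagg

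Split into exon and intron sites, both scaled to all genic sites, the Kmt2a log2 ratio of ΔZF1 to WT in NPCs was -0.11 (-0.50 to 0.28) in exons and 1.41 (0.85 to 2.00) in introns. When exon sites were instead scaled to genic exon sites and intron sites to genic intron sites, the values were 0.17 (-0.23 to 0.55) and 0.85 (0.29 to 1.44), so the exon value had no settled direction. Between NPC WT and ESC WT the ratio to all genic sites was 0.58 (0.26 to 0.90) in exons and 2.34 (1.51 to 3.30) in introns.

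In Nsd1 the intron sites were spread over the whole gene. Intron 7 (chr13:55215679-55233894), 18.2 kb long, held 63, 47 and 14 sites in ESCs, and 25, 26 and 10 in NPCs. The last exon, 30 (chr13:55312119-55318325), held 75, 30 and 15, and 44, 29 and 15. Scaled to all genic sites, its log2 ratio of ΔZF1 to WT in ESCs was -0.16 (-0.53 to 0.18) in exons and 0.38 (0.07 to 0.68) in introns; these intervals overlapped, and the difference between the pair was not tested. The best-scoring site of intron 7 in ESC WT, score 13.1, lay in a uridine- and guanosine-rich stretch.
Nsd1 intron 7, chr13:55223811-55223831, plus strand, ESC WT: tgttgcttgtTtttgagatgt

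**Figure D5:**
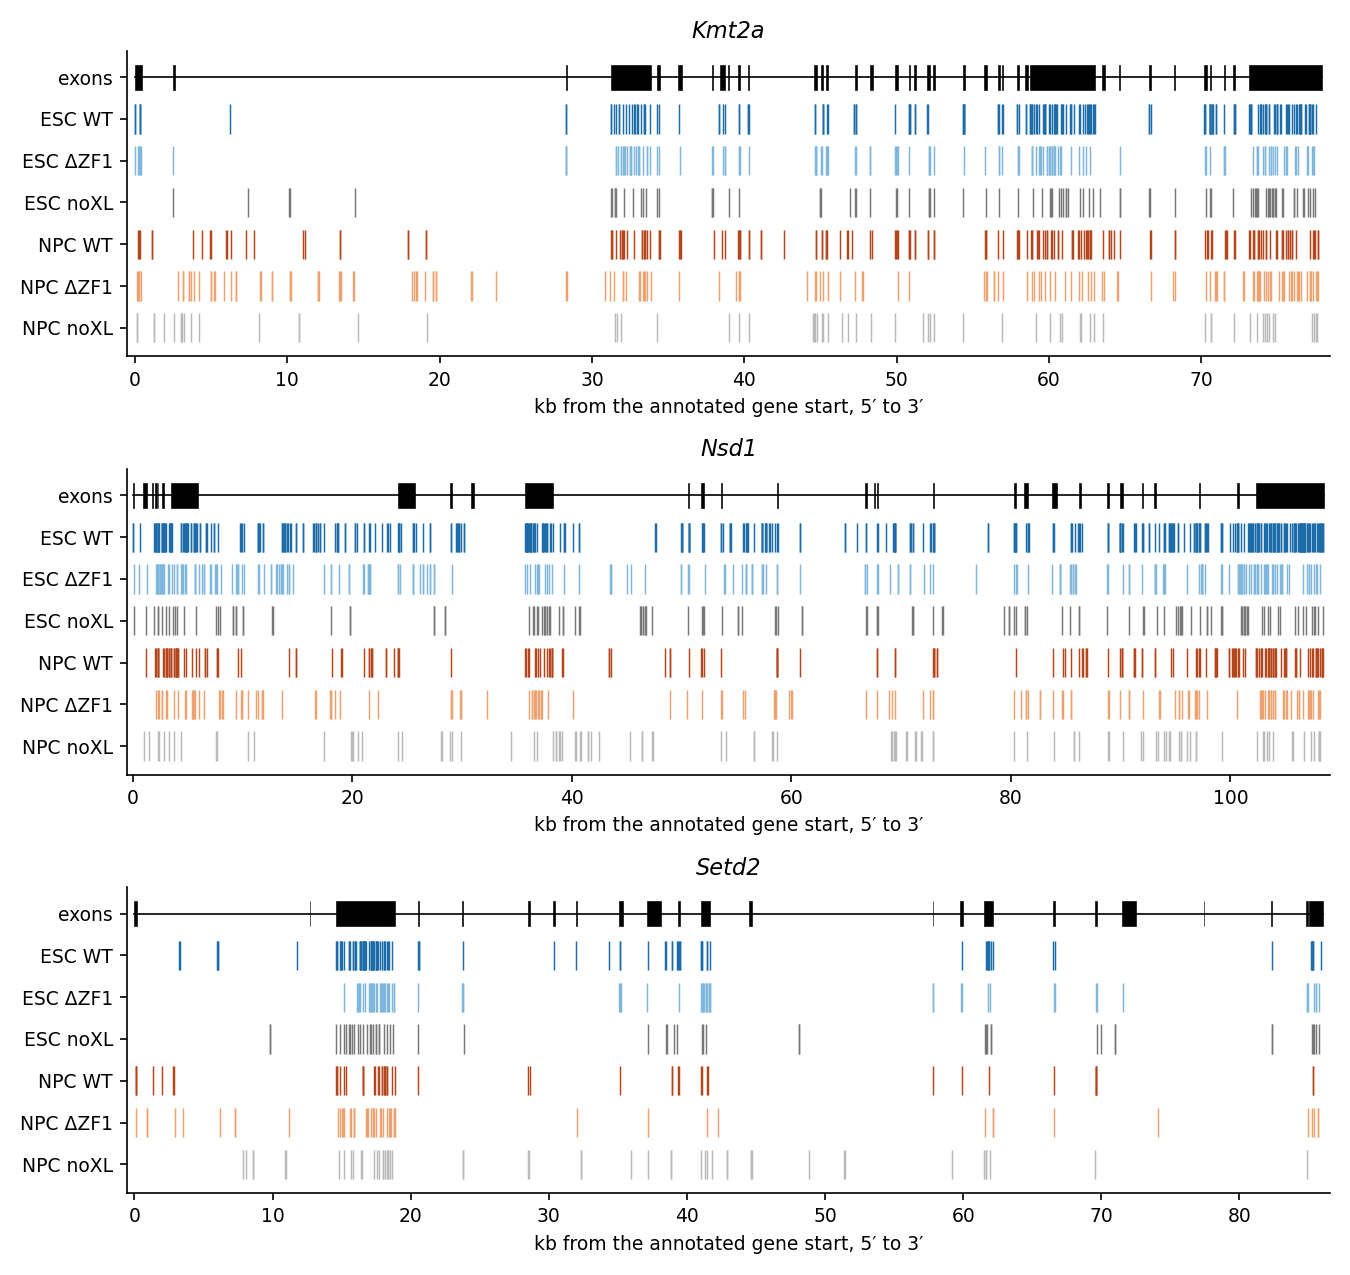
Positions of CTCF sites along Kmt2a, Nsd1 and Setd2 (horizontal axis, kb from the annotated start of the gene, read 5′ to 3′), 1 row per list and 1 tick per site, below the merged exons as black boxes. Kmt2a ticks between 2.84 and 23.7 kb are dense in NPC ΔZF1 and nearly absent from ESC WT, Nsd1 ticks cover its introns, and Setd2 ticks gather in exon 3.

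Few sites recurred at the same position. Of ESC ΔZF1 sites in the 10 genes, 17.8% (15.4 to 20.5) had an ESC WT site within 5 nt, against 4.20% when the sites were shifted by 500 or 1000 nt and 24.2% for all genic sites. For NPC WT sites this share was 20.7% (17.9 to 23.9), with 5.85% after shifting and 28.2% over all genic sites. Only 6.15% of ESC WT sites lay near an ESC noXL site, and 2.38% after shifting. Positions were thus shared well above the shifted level, and both shares of all genic sites lay above the group's intervals. ESC WT sites fell into 1168 groups of sites within 8 nt, of which 85.6% held a single site.

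Scores of the sites with UV were low for their lists. The top 10% of genic scores held 4.54% of the group's ESC WT sites and 4.51% of its NPC WT sites, and 7.31% and 7.14% of its ΔZF1 sites, in place of the 10% that all genic sites give by construction. Without UV the shares were 8.76% (6.82 to 11.2) in ESCs and 7.42% (5.33 to 10.2) in NPCs, whose intervals include 10%. The highest score in the group was 41.7, in NPC noXL, against 708.4 over all genic sites. Antisense sites were rare, between 1 and 10 per list for the 10 genes together.

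The gene outside the group with the profile most like that of its sum over the 6 lists, among 3852 genes with at least 100 sites, was Herc2, at a distance of 0.127. Eps15l1 at 0.168 and Rbbp6 at 0.177 followed.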

How the data were processed

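The deposited values are crosslink sites, 1 list per group, and the score of each site is the one that the authors' PureCLIP run gave it on merged libraries. Before that, the authors used Flexbar for demultiplexing and trimming, STAR for alignment to mm10, UMI-tools for removing PCR duplicates and bedtools for handling intervals. Versions are not given in the sources used here. Longer lists give narrower intervals but need not be more reliable.

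All 6 lists (23 libraries, grouped by their labels) were used, on chromosomes 1 to 19, X and Y. Genes were those of GENCODE release M21 on GRCm38, the same build as mm10. A site in several classes of its gene went to coding exons first, then to 3′ and 5′ UTRs, to exons of non-coding transcripts and last to introns. Exon and intron numbers count merged exons of all transcripts, 5′ to 3′. Bases were read from the RefSeq copy of GRCm38. Log2 ratios used a pseudocount of 1, scaling to genic sites and at least 20 sites in both lists together, with limits of 1 and -1 for calls. Intervals are 95%, and the floor for a count of 0 was 3. The members and gene lists were chosen with earlier results of these data known. Genes named beyond the 10 came from fixed lists of the pathway and of markers, and the exons, introns and windows of single genes were picked after their values were seen. The calculations were tested on simulated data. In all 16 alternatives were tried, of which 2 were added after seeing the data. The scripts ran in Python 3.11.15 (matplotlib 3.10.9, numpy 2.4.6, pysam 0.24.0, scipy 1.17.1 and pandas 2.3.3).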

Additional observations from a re-analysis of the deposited data

Results flagged for a closer look

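The ΔZF1 to WT ratio of Kmt2d went opposite ways in the cell types. Its scaled log2 ratio was 0.79 (0.46 to 1.12) in ESCs, from 154 sites with WT and 135 with ΔZF1, and -0.28 (-0.79 to 0.21) in NPCs, from 90 and 49. The intervals did not overlap, and the difference between the cell types was not tested, since each group is 1 pooled list. Without scaling to genic sites both ratios were below 0, at -0.19 and -0.86. Exon sites scaled to all genic sites gave 0.78 (0.44 to 1.11) and -0.30 (-0.83 to 0.19). Exon sites scaled to genic exon sites gave 0.74 (0.41 to 1.08) and -0.03 (-0.55 to 0.46), and those intervals overlapped.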

How the results depend on the processing

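No paired analysis was possible because sites come from pooled libraries, so leaving out single libraries was not possible either. Of the values that summarise a comparison over the 10 genes, 155 under an alternative stayed within the interval or within 1.5 times the count, and 37 moved. Of those for single genes 648 stayed, 69 moved, and 2 that were past a limit changed sign.

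Without scaling to genic sites the summed log2 ratios were -0.64 for ΔZF1 to WT in ESCs, -0.41 in NPCs, -0.95 for NPC WT to ESC WT, -0.55 for NPC noXL to ESC noXL, 1.07 for ESC WT to ESC noXL and 0.67 for NPC WT to NPC noXL. Genes past the limits then numbered 1, 5 and 4 for ESC ΔZF1 to WT, NPC WT to ESC WT and ESC WT to noXL, in place of 0, 1 and 1. Leaving out the scaling moved the log2 ratio of every gene by the same amount, -0.98, -0.90 and 1.51 in these comparisons. These counts are therefore not particular to the group. The share of all genes past the limits is not given for any alternative, so gene counts under the alternatives have no background. Of 84 ratios of single genes over the 9 comparisons, 47 changed sign without scaling, among them 15 of the 30 with an interval clear of 0, including all 4 for ESC ΔZF1 to WT, both for NPC ΔZF1 to WT and Kmt2a for NPC WT to ESC WT. The 2 past a limit were Kmt2d for ESC WT to noXL, at 0.47, and Ash1l for NPC WT to noXL, at 0.11. These directions are thus relative to the list. With only sites at or above the median score of 3.02, the sum was 0.48 for ΔZF1 to WT in NPCs, -0.67 for ESC WT to noXL and -0.80 for NPC WT to noXL, and the genes past the limits were 1 for ESC ΔZF1 to WT, 1 for NPC ΔZF1 to WT, 1 for NPC noXL to ESC noXL and 3 for ESC WT to noXL. That minimum also gave uridine shares of 60.0% (ESC WT) and 70.6% (NPC WT) and an intron share of 15.5% (NPC WT).

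Intron sites alone, scaled to genic intron sites, gave sums of 0.17 for ESC ΔZF1 to WT, 0.20 for NPC WT to ESC WT, 0.46 for NPC noXL to ESC noXL and -0.19 for ESC WT to noXL, with 1 gene past the limits for ESC ΔZF1 to WT, 3 for ESC WT to noXL and 1 for NPC WT to noXL. Exon sites alone, scaled to genic exon sites, gave -0.59 for ESC WT to noXL. Uridine sites alone left 1 gene past the limits for NPC noXL to ESC noXL and gave 3 for ESC WT to noXL, and merging neighbours gave 0 there. A minimum of 10 sites gave 2 genes for NPC WT to ESC WT, and one of 50 gave 1 for NPC noXL to ESC noXL. Leaving Nsd1 out, chosen after seeing the data, gave -0.63 for ESC WT to noXL, intron shares of 8.13% (ESC WT) and 13.0% (NPC WT) and a uridine share of 53.4% in ESC WT. Leaving Kmt2c out, chosen likewise, gave 0.20 for NPC noXL to ESC noXL. The causes were not tested, and the gene counts given here also lack the matching share of all genes. Site minimums give no other value for sums, and removal of sites near noXL sites was not applied to the noXL lists. Counts limit the genes with few sites: Kmt2e, with 23 and 21 sites in NPC WT and NPC ΔZF1, has an interval of -0.39 to 1.30 for their log2 ratio.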

Other observations

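Genes of the same pathway were listed to set the 10 genes beside their partners and opponents. Of 13 COMPASS subunits and partners, the scaffold and cofactors of the H3K4 methyltransferases, 11 could be compared between NPC WT and ESC WT and all 11 lay below 0, with a median log2 ratio of -0.63, against a median of 0.04 over all genes compared and of -0.11 for the methyltransferases. Without UV 3 of 10 lay above 0 with a median of -0.55. Ash2l and Rbbp5 passed -1 there (12.3% of all genes did), and Kdm6a passed 1 at 1.44 (11.1% did). Lower values in NPCs were thus also present without crosslinking, though not in every gene. Ash2l, a core subunit, held 232 sites with WT CTCF in ESCs and 80 in NPCs, and Wdr5, the subunit that binds the histone tail and the enzyme, held 157 and 43. With WT CTCF only Rbbp5, with 101 and 18 sites, passed the limit of -1, as 10.4% of all genes did. With ΔZF1, 6 of the 10 compared between NPCs and ESCs passed it (Wdr5, Ash2l, Rbbp5, Dpy30, Wdr82 and Paxip1), against 14.1% of all genes. In the ESC comparison of ΔZF1 with WT, all 11 lay above 0 with a median of 0.18, against 0.04 over all genes.

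Of 7 other methyltransferases of active marks compared between NPC WT and ESC WT, 3 lay above 0. Nsd3 and Setd7 passed 1, as 11.5% of all genes did, and Smyd2 and Smyd3 passed -1, as 10.4% did. The 7 included Setd5, with 563 (ESC WT) and 240 (NPC WT) sites, more than any of the 10 genes. Nsd2 and Nsd3, relatives of Nsd1, had log2 ratios of NPC WT to ESC WT of 0.87 and 1.10, where that of Nsd1 was -0.21. Without UV the NPC to ESC ratios were 1.63 for Nsd2, 1.04 for Nsd3 and 0.22 for Nsd1. Setd7 was at 3.26 and Smyd3 at -1.49 there, where 11.1% of all genes passed 1 and 12.3% passed -1. The differences of Nsd2, Nsd3, Setd7 and Smyd3 between cell types were thus not particular to the crosslinked lists. Smyd3 held 66 sites in ESC WT, 7 in NPC WT and 58 in NPC ΔZF1. Its log2 ratio of ΔZF1 to WT in NPCs was 3.47, past the limit of 1 that 5.76% of all genes passed. Of 8 demethylases of H3K4 or H3K36 compared between NPC WT and ESC WT, 3 lay above 0 with a median of -0.12. Kdm2b at 2.43 and Kdm4c at 3.46 passed 1, as 11.5% of all genes did, and Kdm5b at -1.24 passed -1, as 10.4% did. Without UV Kdm2b at 3.40 and Kdm4c at 2.63 also passed 1, as 11.1% of all genes did, and Kdm5b was at -0.97. Of 11 methyltransferases of repressive marks, 5 lay above 0 and the median was 0.00. The H3K9 methyltransferase gene Suv39h1 passed 1 at 1.29, as 11.5% of all genes did. Setdb1 and Setdb2 passed -1 at -1.38 and -1.03, as 10.4% did. The Polycomb enzyme gene Ezh2, with 442 and 161 sites, was at -0.55. Without UV Setdb1 was at -0.95 and Ezh2 at -0.16, and Suv39h1 and Setdb2 had too few sites for a ratio.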
